A study of Mus musculus with 12 samples.

Results

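Nuclear genes for the subunits of oxidative phosphorylation were followed in a chromatin immunoprecipitation sequencing (ChIP-seq) survey of RNA polymerase II (Pol II) in mouse duodenal epithelium. Members were taken by symbol. They were all genes in both of the authors' deposited tables whose symbol begins with Nduf, Uqcr, Cox4 to Cox8 or Atp5, the succinate dehydrogenase genes Sdha to Sdhd, and Cycs and Cyc1. This gave 81 of the 6429 genes in the tables. They comprise 32 genes of complex I, 4 of complex II, 9 of complex III, cytochrome c itself, 14 of complex IV and 17 of complex V. The rule also caught 2 genes for assembly or supercomplex factors (Ndufaf3 and Cox7a2l) and 2 pseudogenes (Ndufs5-ps and Cox7c-ps1). Ndufa4 was counted with complex IV, where its product is now placed. The RefSeq annotation of build GRCm38.p6 lists 98 protein-coding symbols that match the rule, of which 79 were in the tables. Ndufa9, Ndufa10, Ndufb3, Ndufs4 and most complex I assembly factors were among those not analysed here.

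Oxidative phosphorylation takes electrons from nutrients to oxygen across the inner mitochondrial membrane and uses the energy to make ATP. Complex I takes electrons from NADH and complex II from succinate. Ubiquinone carries them to complex III, cytochrome c carries them on to complex IV, where oxygen is reduced, and the proton gradient built on the way drives complex V, the ATP synthase. Most subunits are encoded in the nucleus and are transcribed by Pol II. The intestinal epithelium renews itself from dividing crypt cells, which move onto the villus and become absorptive enterocytes with a high demand for ATP.

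The 3 groups used were villus cells of wild-type (WT) mice, crypt cells of WT mice, and villus cells of mice labelled as double knockouts (DKO) of Hnf4a and Hnf4g, which encode 2 related transcription factors. WT mice received oil vehicle alone. DKO mice received tamoxifen at 50 mg per kg per day for 2 days, and their tissue was held in EDTA for 25 minutes against 35 minutes for WT tissue, so genotype, tamoxifen and EDTA time cannot be told apart. The mice were adult and DKO mice were killed 1 day after the last dose. The alleles, and what drives the deletion, are not given in the sources used here. The labels list 3 Pol II libraries for each group, and 1 input library for each, and crypts were taken as what passed a 70 µm filter.

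The deposited comparisons give no values per library, so the spread between libraries is seen here only through the standard error (SE) of each log2 fold change. At the targeted genes the authors' deposited table gave more Pol II signal in the libraries labelled DKO, at -0.54 for Hnf4a and -1.45 for Hnf4g on the log2 scale (WT over labelled-DKO). The deleted parts of both genes are not given in the labels, so this signal does not check the deletion, and the group is called labelled-DKO. Of 9 enterocyte markers 8 were in the tables, and all 8 were called higher in WT villus than in crypt, with a median of 1.60. All 8 were also called higher in WT villus than in its labelled-DKO counterpart, with a median of 2.41. Of 10 crypt stem and proliferation markers 3 were in the tables, and all 3 were called lower in villus than in crypt (median -0.95). Of these 2 were also called lower in WT than in labelled-DKO villus (median -0.62 of the 3), and the part of such a shift in the members' values was not tested. The samples are bulk epithelium, so a different mix of cell types and a different Pol II signal per cell cannot be told apart.

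Oxidative phosphorylation genes were compared first between WT villus and WT crypt, which asks how Pol II on these genes differs along the crypt-villus axis. A gene was called when its DESeq2 adjusted p over all 6429 genes was under 0.05, and positive log2 fold changes stand for a higher signal in WT villus. Most called members had less Pol II signal in villus than in crypt. By the authors' deposited table, calls were made for 27 of 81 members (33.3%, against 37.4% of all genes). Of these 4 were higher in villus (4.94%, against 18.6% of all genes) and 23 were lower (28.4%, against 18.8%). The 4 higher ones were Cycs, Ndufa6, Atp5g3 and Sdhb. The changes were small: they ran from -0.78 to 0.69, no member passed 1 on the log2 scale in either direction while 4.43% of all genes did, and the members' median was -0.12 against -0.04 for all genes. When every gene was centred on that overall median 7 members were called higher (8.64%) and 16 lower (19.8%). After centring 35.9% of all genes were called, both directions together. That share was not split by direction, so whether members were still called lower more often than all genes after centring is not known here.

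**Figure D1:**
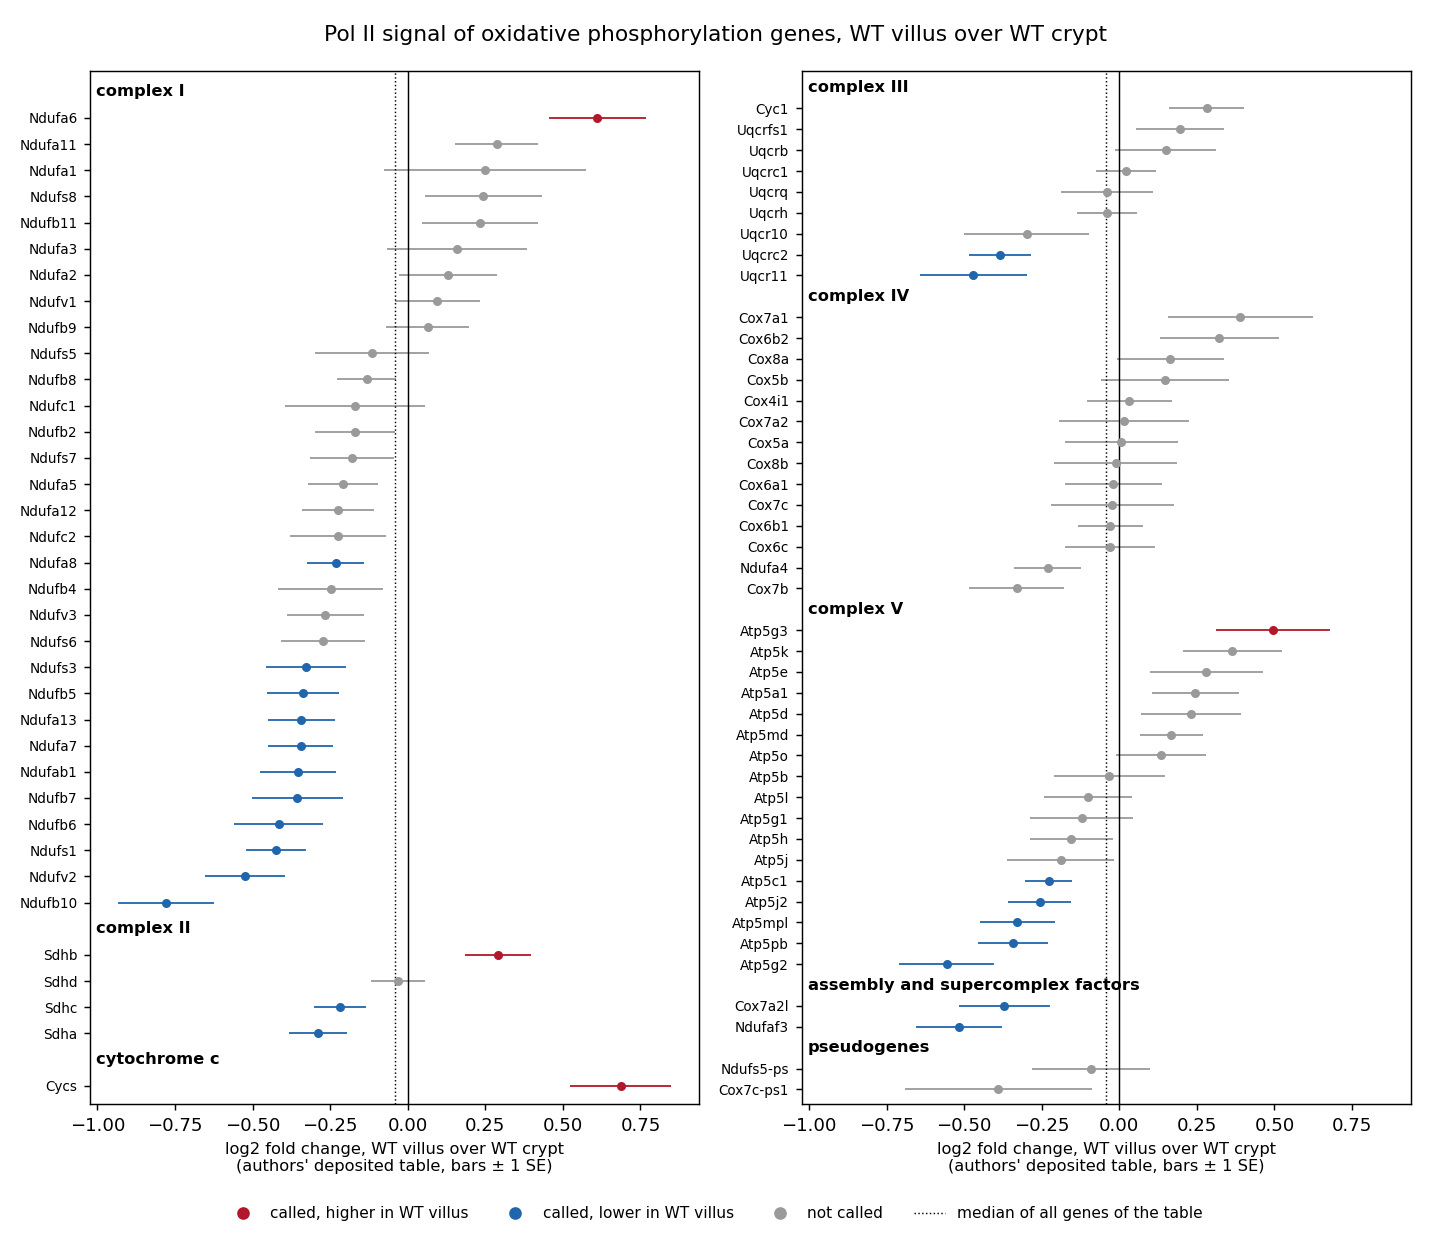
Each point is the log2 fold change of Pol II signal of one member, WT villus over WT crypt, from the authors' deposited table, with bars of 1 SE, grouped by respiratory complex (1 member is not drawn). Red points are called higher and blue points called lower in WT villus, and most coloured points lie left of 0, with Cycs, Ndufa6, Atp5g3 and Sdhb on the right.

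WT villus was then compared with labelled-DKO villus, as the study's contrast of genotypes, with tamoxifen and EDTA time differing too. A smaller share of members than of all genes was called, in both directions. The authors' deposited table called 24 of 81 members (29.6%, against 51.9% of all genes), 11 higher in WT villus (13.6%, against 22.4%) and 13 lower (16.0%, against 29.5%). The median was -0.03, against -0.08 for all genes. Centring gave 16 called higher (19.8%) and 9 called lower (11.1%), with 48.7% of all genes called, both directions together. The share of all genes in each direction after centring was not counted. The balance of directions between the genotypes thus depended on the scaling. One member passed 1 on the log2 scale, Ndufa6 at 1.21, as 8.71% of all genes did. Both comparisons use the WT villus libraries, so their values are set side by side below and not counted together.

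**Figure D2:**
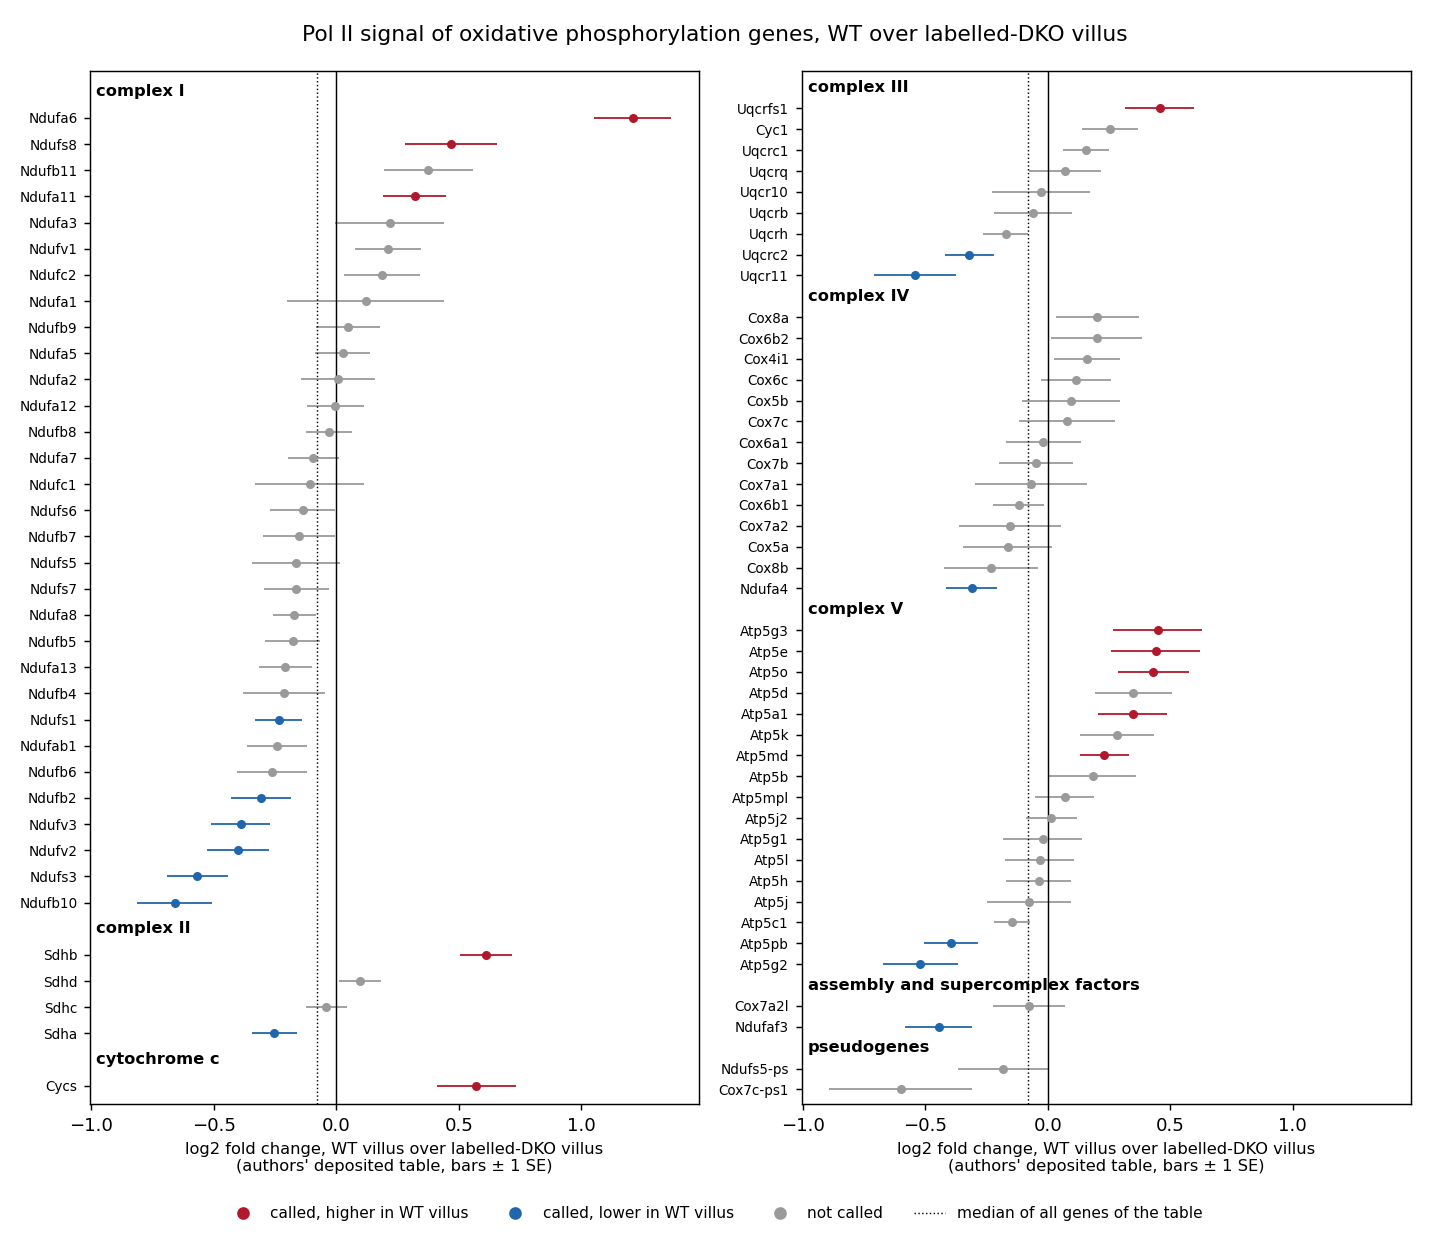
Each point is the log2 fold change of Pol II signal of one member, WT villus over labelled-DKO villus, from the authors' deposited table, with bars of 1 SE (1 member is not drawn). Ndufa6 stands at 1.21 on the right, and called members of complex V lie on both sides of 0.

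**Figure D3:**
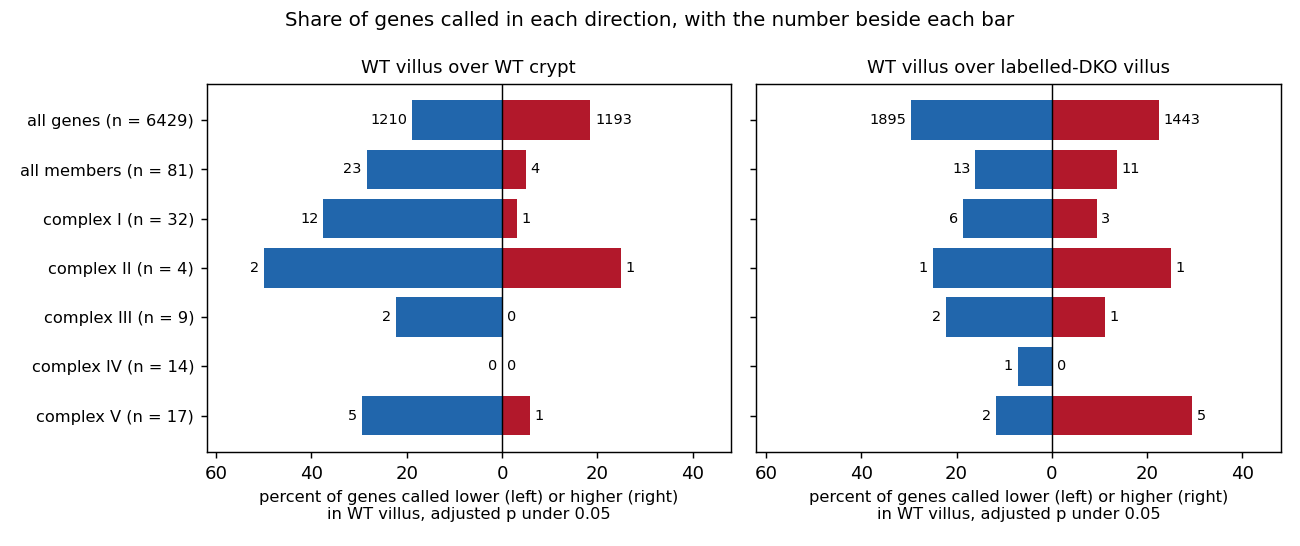
Bars give the percent of genes called lower (left) or higher (right) in WT villus, with the number of genes at each bar's end, for all genes, all members and each complex. Complex I shows 12 lower and 1 higher against crypt, complex IV shows none, and complex V shows 5 higher and 2 lower against labelled-DKO villus.

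Complex I, the NADH dehydrogenase, had the most genes lower in villus. For villus and crypt, the authors' deposited table had 12 of its 32 genes called lower (37.5%, against 18.8% of all genes). It had 1 called higher (3.1%, against 18.6%), and the median was -0.22. Against labelled-DKO villus 6 were called lower (18.8%, against 29.5%) and 3 higher (9.38%, against 22.4%). The core subunits of complex I hold the flavin and the iron-sulfur clusters. Of those described here Ndufs1, Ndufs3 and Ndufv2 were called lower in villus, and Ndufs7, Ndufs8 and Ndufv1 were not called. After centring Ndufs3 (adjusted p 0.0675) no longer passed. Ndufs1, the large iron-sulfur subunit (chr1:63190166-63223396 in build mm9, minus strand), had a rebuilt signal of 285 normalised counts in crypt, 213 in WT villus and 250.4 in labelled-DKO villus. Rebuilt signals are group means computed from the authors' overall mean and both fold changes, with no SD. The Ndufs1 change was -0.42 ± 0.10 (SE), adjusted p 9.22e-05 against crypt, and -0.24 ± 0.10, adjusted p 0.0305 against labelled-DKO villus, in the authors' deposited tables. After centring the second no longer passed (adjusted p 0.176). The start of Ndufs1 lies 9 bp from the divergent start of Eef1b2, a translation elongation factor gene that was also lower in villus, at -0.64 ± 0.19, and it overlaps Ino80dos, at -0.41 ± 0.10.

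Ndufv2, another iron-sulfur subunit (chr17:66428135-66450899, minus strand), showed the same order of levels, 219 in crypt, 152 in WT villus and 200.5 in labelled-DKO villus. The authors' deposited tables gave it -0.53 ± 0.13 against crypt (adjusted p 2.70e-04) and -0.40 ± 0.13 against labelled-DKO villus (adjusted p 0.00457). Ndufs3, a subunit of the matrix arm, was at 116 in crypt, 92.5 in WT villus and 137 in labelled-DKO villus. WT villus was thus the lowest of the 3 groups for these core subunits. The larger Ndufs3 difference was the one between genotypes, at -0.57 ± 0.12, adjusted p 2.61e-05, beside -0.33 ± 0.13 and 0.0317 against crypt, in the authors' deposited tables. Ndufs8 and Ndufv1 had positive changes in both comparisons. The authors' deposited table had Ndufs8 higher in WT villus than in labelled-DKO villus, at 0.47 ± 0.19, adjusted p 0.0273. The Ndufs8 change against crypt was 0.24 ± 0.19, not called. Ndufv1, which binds NADH, and Ndufs7 were called in neither of the authors' deposited tables, with adjusted p-values between 0.18 and 0.625.

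The largest changes of complex I were at 2 accessory subunits. Ndufb10, a subunit of the membrane arm (chr17:24859006-24861368, minus strand), was at 130.1 in crypt, 75.8 in WT villus and 120 in labelled-DKO villus. This is the largest decrease of any member in villus, 1.72-fold below crypt, with a log2 fold change of -0.78 ± 0.15 and adjusted p 5.23e-06 in the authors' deposited table. Against labelled-DKO villus it was -0.66 ± 0.15, adjusted p 7.49e-05. The ribosomal protein gene Rps2 lies 133 bp away and had -0.82 ± 0.27 against crypt and -0.22 ± 0.27 against labelled-DKO villus in the authors' deposited tables. The part of this neighbour in the Ndufb10 signal was not tested.

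Ndufa6, which encodes a small accessory subunit of the LYR motif family that binds the acyl carrier protein Ndufab1, went the other way (chr15:82180569-82184721, minus strand). It was at 147 in crypt, 224 in WT villus and 96.8 in labelled-DKO villus, so WT villus was the highest group and labelled-DKO villus the lowest. By the authors' deposited tables WT villus was 1.53-fold above crypt (0.61 ± 0.16, adjusted p 5.31e-04) and 2.31-fold above labelled-DKO villus (1.21 ± 0.16, adjusted p 2.42e-13). The second is the largest change of any member in either comparison. In the authors' coordinates no other gene lay within 1000 bp of Ndufa6. Its partner Ndufab1 was called lower in villus than crypt, at -0.35 ± 0.12 (adjusted p 0.0151), and the difference between these 2 genes was not tested. The RefSeq promoter of Ndufa6 (build GRCm38.p6, 250 bases before to 50 after the start) is shown because of this change. Capitals mark a GC box, and the letters searched for HNF4 sites were not found in it.

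Ndufa6, chr15:82354242-82354541, minus strand: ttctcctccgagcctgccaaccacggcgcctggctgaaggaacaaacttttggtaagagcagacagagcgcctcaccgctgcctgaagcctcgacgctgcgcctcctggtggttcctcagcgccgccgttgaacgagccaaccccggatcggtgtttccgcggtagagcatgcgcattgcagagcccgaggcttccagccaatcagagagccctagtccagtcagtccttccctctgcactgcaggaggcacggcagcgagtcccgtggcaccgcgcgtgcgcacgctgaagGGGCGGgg

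Other called accessory subunits of complex I were Ndufa7, Ndufa8, Ndufa13, Ndufab1, Ndufb5, Ndufb6 and Ndufb7, all lower in villus than crypt, between -0.23 and -0.42 in the authors' deposited table. Ndufa8 (adjusted p 0.0872) and Ndufb7 (adjusted p 0.0823) lost the call after centring. Between genotypes the authors' deposited table called Ndufa11 higher in WT villus (0.32 ± 0.13, adjusted p 0.0292) and Ndufb2 and Ndufv3 lower (-0.31 ± 0.12 and -0.39 ± 0.12), and Ndufb2 lost the call after centring (adjusted p 0.118). The assembly factor Ndufaf3 was called lower in WT villus than in both other groups. The authors' deposited tables gave it -0.52 ± 0.14 against crypt (adjusted p 0.00105) and -0.45 ± 0.14 against labelled-DKO villus (adjusted p 0.00299). Its neighbour Impdh2, an enzyme of guanine nucleotide synthesis, lies 3 bp away and had -0.48 ± 0.15 against crypt.

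Complex II, succinate dehydrogenase, had all 4 of its subunit genes in the tables, and they did not move as one. Sdha, the flavoprotein subunit (chr13:74459703-74487688, minus strand), had a rebuilt signal of 295.5 in crypt, 242 in WT villus and 288 in labelled-DKO villus. Sdhb, the iron-sulfur subunit that joins Sdha to the membrane anchor (chr4:140517186-140535113, plus strand), stood at 217 in crypt, 265 in WT villus and 174 in labelled-DKO villus. WT villus was therefore the lowest group for Sdha and the highest for Sdhb. The authors' deposited tables gave Sdha -0.29 ± 0.09 against crypt (adjusted p 0.00746) and -0.25 ± 0.09 against labelled-DKO villus (adjusted p 0.0141), and the second did not pass after centring, at -0.17, adjusted p 0.111. They gave Sdhb 0.29 ± 0.11 (adjusted p 0.0214) and 0.61 ± 0.11 (adjusted p 8.26e-08), the latter a 1.53-fold difference. Of the membrane anchors, Sdhc was lower in villus than crypt in the authors' deposited table, at -0.22 ± 0.08, adjusted p 0.0268, and -0.04 ± 0.08 between genotypes. The Sdhc call was lost after centring (adjusted p 0.0838). Sdhd was called in neither of the authors' deposited tables, at -0.03 ± 0.09 and 0.10 ± 0.09. The start of Sdha lies 77 bp from that of Ccdc127, which was also lower in WT villus in both of the authors' deposited tables, at -0.48 ± 0.15 and -0.62 ± 0.14. No other gene lay within 1000 bp of Sdhb.

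Complex III, which passes electrons from ubiquinol to cytochrome c, had 2 of 9 genes called lower in villus than crypt (22.2%, against 18.8% of all genes) and none called higher in the authors' deposited table, with a median of -0.04. These were Uqcrc2, a core protein of the complex (-0.38 ± 0.10, adjusted p 6.70e-04), and Uqcr11, a small subunit (-0.47 ± 0.17, adjusted p 0.0201). Both were lower in WT than in labelled-DKO villus too, at -0.32 ± 0.10 and -0.54 ± 0.17, in the authors' deposited table. Uqcrc2 overlaps Pdzd9, which had -0.36 ± 0.12 and -0.52 ± 0.12. The Rieske iron-sulfur protein gene Uqcrfs1 was higher in WT villus than in its labelled-DKO counterpart, 163 against 119 in rebuilt signal, with 143 in crypt. The change between genotypes was 0.46 ± 0.14, adjusted p 0.00344, and against crypt it was 0.19 ± 0.14 (adjusted p 0.29), in the authors' deposited tables. Cyc1, the cytochrome c1 subunit that hands electrons to cytochrome c, lay just outside the threshold in both of the authors' deposited tables, at 0.28 ± 0.12 (adjusted p 0.0510) and 0.25 ± 0.12 (adjusted p 0.0550). After centring it passed in both, with adjusted p-values of 0.0235 and 0.0106.

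Cycs, the gene for cytochrome c, the mobile electron carrier that also triggers apoptosis when released from mitochondria, had the largest increase of any member from crypt to villus. It lies at chr6:50512562-50516568 on the minus strand in mm9. Its rebuilt signal was 196 in crypt, 315 in WT villus and 212 in labelled-DKO villus, so crypt and labelled-DKO villus lay close together below WT villus. WT villus was 1.61-fold above crypt (0.69 ± 0.16, adjusted p 1.68e-04) and 1.49-fold above labelled-DKO villus (0.57 ± 0.16, adjusted p 0.00122) in the authors' deposited tables. A start of the RIKEN transcript 5430402O13Rik, which was not in those tables, lies 74 bp upstream on the other strand. The promoter of Cycs is printed because nuclear respiratory factor 1 (NRF1) is a known regulator of this gene. Capitals mark an NRF1 core (GCGCATGCG, here as its other strand CGCATGCGC) and a GC box (GGGCGG or CCGCCC).

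Cycs, chr6:50566520-50566819, minus strand: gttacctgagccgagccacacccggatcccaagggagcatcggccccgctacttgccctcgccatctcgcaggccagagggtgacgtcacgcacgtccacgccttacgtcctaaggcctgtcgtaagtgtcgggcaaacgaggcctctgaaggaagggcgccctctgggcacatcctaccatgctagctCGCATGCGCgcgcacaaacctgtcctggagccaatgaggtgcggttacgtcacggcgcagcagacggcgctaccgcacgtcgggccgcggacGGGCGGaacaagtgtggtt

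Complex IV, cytochrome c oxidase, had no called gene against crypt. For villus and crypt, the authors' deposited DESeq2 table called 0 of its 14 genes, against 37.4% of all genes, and the median was -0.0024. Cox4i1, a subunit that binds ATP and ADP, had a change of 0.03 ± 0.14 against crypt and 0.16 ± 0.14 against labelled-DKO villus in the authors' deposited tables. The changes of Cox5a, Cox6a1, Cox6b1, Cox6c, Cox7a2 and Cox7c against crypt all lay between -0.03 and 0.02 in the authors' deposited table, each smaller than its SE. The 2 lowest were Cox7b at -0.33 ± 0.15 (adjusted p 0.0726) and Ndufa4 at -0.23 ± 0.11 (adjusted p 0.0788), the 2 genes with an unadjusted p under 0.05. Between genotypes the authors' deposited table called Ndufa4 alone (7.14%, against 51.9% of all genes), lower in WT villus at -0.31 ± 0.10, adjusted p 0.00752. Ndufa4 lost the call after centring (-0.23, adjusted p 0.0566). SEs in this complex ran up to 0.23, so a change of that size could not be told from 0.

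Isoforms of complex IV known from other tissues were also in the tables. Cox7a1 and Cox8b are known from heart and muscle and Cox6b2 from testis. Their Pol II signal was not called different in either of the authors' deposited tables, with changes from -0.01 to 0.39 against crypt. Each of these genes has a neighbour within 1000 bp, which for Cox7a1 is the calpain subunit gene Capns1, 903 bp away. Capns1 had 0.39 ± 0.13 against crypt beside 0.39 ± 0.23 for Cox7a1 in the authors' deposited table, and the part of neighbours in these signals was not tested. The supercomplex factor Cox7a2l was called lower in villus than crypt, at -0.37 ± 0.15, adjusted p 0.0342, and lost the call after centring (adjusted p 0.0666).

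Complex V, the ATP synthase, had calls in both directions. For villus and crypt, the authors' deposited table called 1 of 17 genes higher (5.88%, against 18.6% of all genes) and 5 lower (29.4%, against 18.8%). The median was -0.10. Against labelled-DKO villus it called 5 higher in WT villus (29.4%, against 22.4% of all genes) and 2 lower (11.8%, against 29.5%). The median was 0.07, and 0.15 after centring. Of the F1 part, which makes ATP in the matrix, Atp5a1 (alpha) and Atp5e (epsilon) were higher in WT villus than in its labelled-DKO counterpart. The authors' deposited table gave Atp5a1 0.35 ± 0.14 (adjusted p 0.0284) and Atp5e 0.44 ± 0.18 (adjusted p 0.0321). Atp5d (delta) lay just outside the threshold, at 0.35 ± 0.16, adjusted p 0.0522, and passed after centring (adjusted p 0.0162). Atp5b, the catalytic beta subunit, was called in neither of the authors' deposited tables, at -0.03 ± 0.18 against crypt and 0.18 ± 0.18 between genotypes. Atp5c1 (gamma) was the single F1 gene called against crypt, lower in villus at -0.23 ± 0.08, adjusted p 0.00938. Atp5e lies 989 bp from Prelid3b, which had 0.34 ± 0.14 in WT against labelled-DKO villus and 0.13 ± 0.14 against crypt. Atp5a1 overlaps Haus1, a subunit of the augmin complex, also higher in WT than labelled-DKO villus in the authors' deposited table, at 0.31 ± 0.13.

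In the stalk and membrane part, Atp5o, the stalk protein known as OSCP, and Atp5md were higher in WT villus than in its labelled-DKO counterpart, at 0.43 ± 0.15 (adjusted p 0.00753) and 0.23 ± 0.10 (adjusted p 0.0404) in the authors' deposited table. Atp5pb, the b subunit of the peripheral stalk, was lower in WT villus than in both other groups, at -0.34 ± 0.11 against crypt (adjusted p 0.00886) and -0.40 ± 0.11 against labelled-DKO villus (adjusted p 0.00121). Atp5j2 and Atp5mpl were called lower in villus than crypt (-0.26 ± 0.10 and -0.33 ± 0.12) and differed by 0.01 ± 0.10 and 0.07 ± 0.12 between genotypes in the authors' deposited tables. Atp5j2 lost the first call after centring (adjusted p 0.0887).

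Opposite directions were found inside complex V among Atp5g1, Atp5g2 and Atp5g3. These 3 genes encode precursors of the same mature protein, subunit c, which forms the rotating ring of the synthase. Atp5g3 (chr2:73746504-73749383, minus strand) had a rebuilt signal of 157 in crypt, 222 in WT villus and 162 in labelled-DKO villus. Atp5g2 (chr15:102493299-102501478, minus strand) was at 138 in crypt, 93.7 in WT villus and 134 in labelled-DKO villus. Atp5g1 (chr11:95934107-95937008, minus strand) was at 72.9, 67.0 and 68.0 in the same order. WT villus was thus the highest group for Atp5g3 and the lowest for Atp5g2, and crypt and labelled-DKO villus were close together for both. In the authors' deposited tables Atp5g3 was 1.41-fold above crypt (0.50 ± 0.18, adjusted p 0.0214) and above labelled-DKO villus (0.45 ± 0.18, adjusted p 0.0277). Atp5g2 was 1.47-fold below crypt (-0.56 ± 0.15, adjusted p 0.00143) and 1.43-fold below labelled-DKO villus (-0.52 ± 0.15, adjusted p 0.00176). Atp5g1 was called in neither, at -0.12 ± 0.17 and -0.02 ± 0.16. A difference between these genes was not tested.

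**Figure D4:**
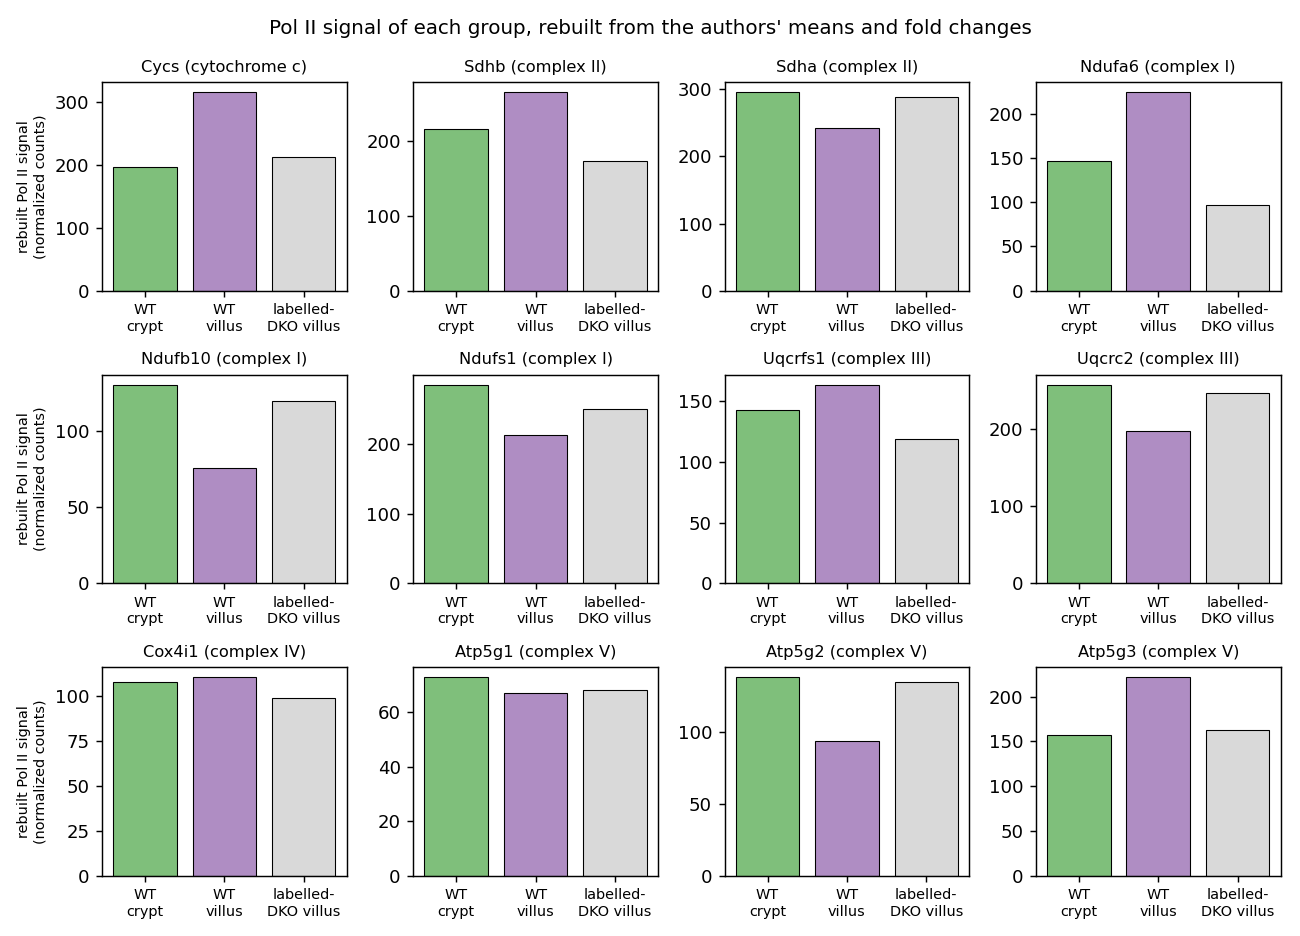
Bars give the Pol II signal of each group in normalised counts, rebuilt from the authors' means and fold changes and so without error bars, for 12 members, each on its own axis from 0. WT villus is the tallest bar for Cycs, Sdhb, Ndufa6, Uqcrfs1 and Atp5g3 and the shortest for Sdha, Ndufb10, Ndufs1, Uqcrc2 and Atp5g2.

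The promoters of the genes for subunit c are shown to compare their letters, again from RefSeq, build GRCm38.p6. Capitals mark an NRF1 core that overlaps its other strand and a GC box in Atp5g2 and an oestrogen-related receptor (ERR) element (TCAAGGTCA, here as its other strand TGACCTTGA) in Atp5g3. Atp5g1 held none of the motifs searched.

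Atp5g1, chr11:96075582-96075881, minus strand: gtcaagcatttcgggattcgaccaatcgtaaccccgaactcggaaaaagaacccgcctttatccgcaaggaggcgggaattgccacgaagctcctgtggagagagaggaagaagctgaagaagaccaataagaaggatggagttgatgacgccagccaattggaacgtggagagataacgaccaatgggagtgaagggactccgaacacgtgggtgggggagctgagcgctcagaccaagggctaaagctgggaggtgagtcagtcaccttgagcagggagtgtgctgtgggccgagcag

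Atp5g2, chr15:102670998-102671297, minus strand: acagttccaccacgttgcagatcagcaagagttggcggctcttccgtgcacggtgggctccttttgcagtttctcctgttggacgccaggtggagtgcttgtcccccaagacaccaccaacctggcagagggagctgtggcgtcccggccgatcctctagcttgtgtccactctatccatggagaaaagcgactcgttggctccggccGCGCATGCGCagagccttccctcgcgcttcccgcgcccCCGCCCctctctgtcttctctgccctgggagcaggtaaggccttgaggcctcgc

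Atp5g3, chr2:73911277-73911576, minus strand: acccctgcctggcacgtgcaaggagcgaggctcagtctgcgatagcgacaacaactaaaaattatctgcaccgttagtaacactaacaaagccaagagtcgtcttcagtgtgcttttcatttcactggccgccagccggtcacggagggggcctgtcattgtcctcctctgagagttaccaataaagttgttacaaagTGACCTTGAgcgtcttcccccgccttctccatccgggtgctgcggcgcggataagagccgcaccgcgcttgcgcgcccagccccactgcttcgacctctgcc

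On both strands 6 motifs were searched, in the letters of 71 promoters, which covered 66 of the 81 members, beside all 32851 promoters of the table and the 6589 of genes in the authors' tables. The NRF1 core was found in 9 member promoters (12.7%), against 3.63% of promoters of the tables' genes and 1.75% of all promoters. The genes were Atp5g2, Atp5k, Atp5l, Cox6a1, Cycs, Ndufa8, Ndufa11, Uqcr11 and Uqcrc1. Of these 1 was called higher in villus than crypt, 3 were called lower and 5 were not called, so the motif was present in members of either direction. The ETS core (CCGGAAG), which GABPA can bind, was found in 23.9%, against 18.5% and 8.86%. The YY1 core (AAGATGGCG) was found in 7.04%, against 2.88% and 1.40%, and the GC box in 42.3%, against 62.1% and 35.7%. The ERR element was found in 2 promoters (2.82%), those of Atp5g3 and Sdhd, against 0.395% and 0.423%. The HNF4 element (CAAAGTCCA) was found in 0 of 71, against 0.668% and 0.475%, which says only that these letters are not in these windows. The NRF1 core overlaps its own other strand, and such a pair was counted as 1 promoter.

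Neighbouring genes were counted for the 80 members with a position in the authors' windows. Another gene overlapped or lay within 1000 bp for 46 (57.5%), against 53.0% of all genes with a position. A start on the other strand within 1000 bp upstream was found for 22 (27.5%, against 14.7%), and an overlapping gene for 13 (16.2%, against 28.3%). Either of these was found for 40.0% of members and 39.5% of all genes. Of the 23 members called lower in villus than crypt, 13 had a neighbour in the authors' deposited tables that overlapped or lay within 1000 bp, and for 9 of these (69.2%) the neighbour was called lower too. Of the 58 other members 17 had such a neighbour, which was called lower for 2 (11.8%), and 18.8% of all genes were called lower. The part of neighbours in the members' values was not tested. None of the 4 members called higher in villus had such a neighbour. ChIP signal has no strand, so reads near a shared start cannot be assigned to one gene. Among the 34 members with no other gene within 1000 bp, 3 were called higher (8.82%) and 6 lower (17.6%) in villus than crypt. Among the 46 with such a gene 1 was called higher (2.17%) and 17 lower (37.0%), against 18.6% and 18.8% of all genes. Those last shares are of all genes with or without a neighbour, because all genes were not split in this way. Ndufs5 and the pseudogene Ndufs5-ps cover nearly the same bases and gave almost the same values (-0.12 and -0.09 against crypt), so they count as 1 signal. Neither was called.

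Labelled-DKO villus was next set against WT crypt directly, as the difference of both deposited log2 fold changes, with the largest SE that independent libraries allow. By this Wald test with Benjamini-Hochberg adjustment 0 of 81 members were called, against 13.6% of all genes, 6.41% higher and 7.19% lower in labelled-DKO villus. At an unadjusted p under 0.05 there were 3 members (3.70%, against 24.7% of all genes), Ndufa6, Sdhb and Atp5mpl, all lower in labelled-DKO villus. Ndufa6 was nearest to the threshold, at -0.60 ± 0.22, adjusted p 0.0504, and it passed after centring (adjusted p 0.0489). Sdhb was at -0.32 ± 0.15 and Atp5mpl at -0.40 ± 0.17. The median of all members was -0.10, against 0.00 for all genes. A smaller SE, the mean of the deposited ones, gave 5 called members (6.17%, against 29.9% of all genes with that SE), all lower in labelled-DKO villus: those 3, Ndufc2 and Atp5j2. Cycs was at 0.11 ± 0.23, Atp5g3 at 0.05 ± 0.26 and Atp5g2 at -0.04 ± 0.22. The 95% interval of Cycs ran from -0.34 to 0.56, so a difference of that size between labelled-DKO villus and crypt was not detectable.

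**Figure D5:**
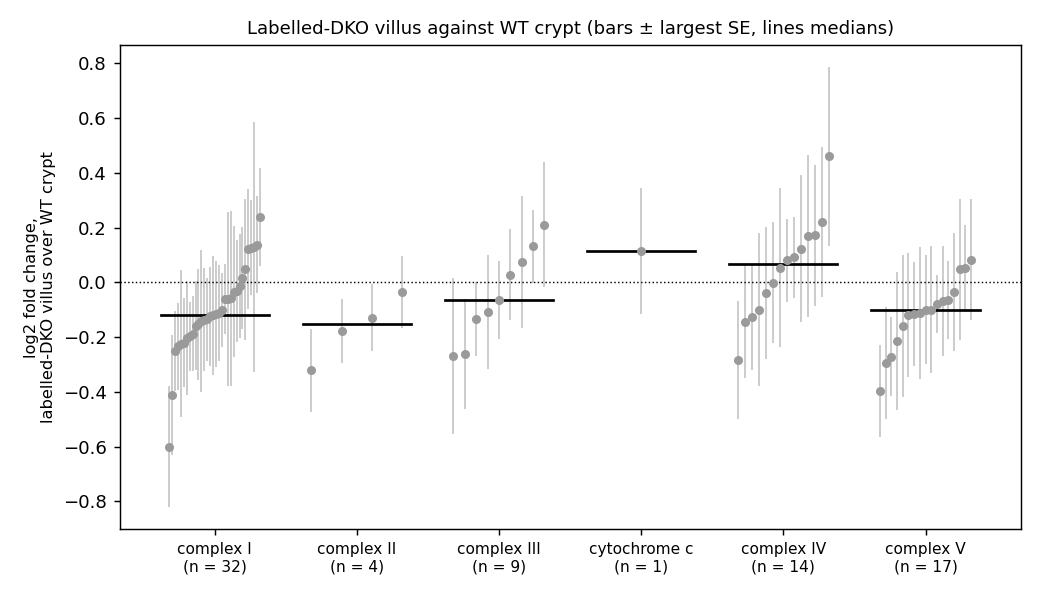
Each point is the log2 fold change of one member, labelled-DKO villus over WT crypt, with bars of the largest SE, and black lines mark each complex's median. No point is called, and Ndufa6 is the lowest at -0.60.

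Genes that supply or serve the respiratory chain were read from lists outside the rule. Counts in these lists stand beside 18.6% of all genes called higher and 18.8% lower in villus than crypt, and 22.4% higher and 29.5% lower in WT villus against labelled-DKO villus. The lists are short. Of 14 genes of the tricarboxylic acid cycle 11 were in the tables. The authors' deposited table called 3 higher in villus than crypt, led by Mdh2 (malate dehydrogenase, 0.70 ± 0.15), and 3 lower, led by Idh3b (a subunit of isocitrate dehydrogenase, -0.64 ± 0.15). Between genotypes it called 3 higher in WT villus, with Dlst at 0.51 ± 0.08, and 2 lower, with Idh3b at -0.73 ± 0.14. Of 7 genes of pyruvate entry 1 was higher in villus than crypt (Pdk2, 0.60 ± 0.13) and 2 were lower. Against labelled-DKO villus 1 was higher in WT (Pdk2, 0.98 ± 0.13) and 3 were lower, with the pyruvate dehydrogenase kinase gene Pdk4 at -1.75 ± 0.25.

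The carrier list, of ATP, phosphate and porin channels, had 8 genes in the tables. By the authors' deposited tables, 3 were higher in villus than crypt and none lower, and 3 were higher and 1 lower in WT than in labelled-DKO villus. Slc25a5, which exchanges ATP for ADP across the inner membrane, led both counts at 1.42 ± 0.21 (adjusted p 3.77e-10) and 1.57 ± 0.21 (adjusted p 7.40e-13). Both values lie above those of any oxidative phosphorylation member. The list of mitochondrial protein import went the other way. Of its 15 tested genes 12 were called lower in villus than crypt and none higher, with a median of -0.53, and 11 were called lower in WT than in labelled-DKO villus, with a median of -0.39, in the authors' deposited tables. The chaperone genes Hspe1 (-1.03 ± 0.22 against crypt) and Hspd1 (-1.11 ± 0.18 against labelled-DKO villus) had the largest changes.

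Assembly factors outside the rule were mostly not called. Of 25 tested the authors' deposited tables called 1 higher and 4 lower in villus than crypt, and 2 higher and 8 lower in WT than in labelled-DKO villus. Cox14 was the largest increase in both, at 1.09 ± 0.13 and 0.61 ± 0.11. The largest decreases were Coa6 against crypt (-0.67 ± 0.20) and Uqcc2 between genotypes (-1.11 ± 0.17). Of 6 tested genes for expression of the mitochondrial genome 4 were lower in villus than crypt, led by Tfam, its main packaging and transcription factor (-0.57 ± 0.12), and Polg2 was higher (0.46 ± 0.18). Between genotypes 2 of them were lower in WT villus and none higher, with Slirp at -0.73 ± 0.16.

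Of 9 tested regulators of mitochondrial biogenesis 5 were lower and 1 was higher in villus than crypt in the authors' deposited table. Myc, also one of the crypt markers above, had the largest decrease at -1.06 ± 0.18, and the coactivator gene Ppargc1a was higher at 0.30 ± 0.12 (adjusted p 0.0335). Between genotypes 5 were lower in WT villus, led by Ppara at -0.85 ± 0.10, and 1 was higher, the oestrogen-related receptor gene Esrra at 0.56 ± 0.15 (adjusted p 8.37e-04).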

How the data were processed

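Pol II ChIP-seq libraries were aligned to mm9 with Bowtie2 2.2.6, counted with featureCounts and compared with DESeq2 1.36.0, per the submitters' processing notes. The authors deposited 2 DESeq2 tables with, per the file headers, a mean signal (counts over size factors), a log2 fold change and its SE on the log2 scale, a Wald score, and a p-value with its adjusted p. The fit's gene filter, window and number of libraries are not given in the sources used here. The deposited Wald score equalled fold change over SE to within 1.78e-07. Signs follow the tables' names.

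Per the file headers, featureCounts 2.0.3 counted read pairs of mapping quality 30 or more in promoter and gene body windows. Their 18 count columns carry no names and were not used, so depth per library is unknown here; window positions gave gene positions and neighbours. On the minus strand the deposited gene body window reached past both ends of the gene.

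Group signals were rebuilt from the mean and both fold changes, with 3 groups of equal size assumed and the mean taken over those groups alone. The difference of labelled-DKO villus and crypt was tested on simulated data first. Of 44308 promoter windows 42877 matched a symbol. Python 3.11.15, scipy 1.17.1 and pandas 2.3.3 were used.

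Named members are, per complex and comparison, up to 2 called genes with the largest changes each way, plus complex II, Cycs, Cyc1, F1 and complex I core genes. One member is counted but not reported by name here. Others named, and the neighbours, were chosen after their values were seen. Members, lists (tricarboxylic acid cycle, pyruvate entry, assembly factors, carriers, mitochondrial genome expression, biogenesis regulators, protein import) and markers were chosen with earlier results of these data known. Of the markers, 5 of 7 secretory, 1 of 5 immune and 0 of 7 mesenchyme and muscle genes were tested; in villus against crypt 2 secretory genes were called higher and 2 lower, and 1 immune gene higher. In WT against labelled-DKO villus 2 secretory genes were called lower and none higher, and 1 immune gene higher. Alternatives were a stricter threshold, centring, a minimum change, another SE, and subsets of members. Nothing says that the libraries came from separate animals, so p-values measure the spread between libraries.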

Additional observations from a re-analysis of the deposited data

How the results depend on the processing

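An adjusted p under 0.01 left 13 members called between villus and crypt (16.0%, with 27.0% of all genes) and 15 between WT and labelled-DKO villus (18.5%, with 40.9%), against 27 and 24. Against a null of at most 0.25 (log2), 1 (Ndufb10; 1.23%, with 11.04% of all genes) and 3 (Ndufa6, Ndufb10 and Sdhb; 3.70%, with 21.1%) were called. For labelled-DKO villus against crypt, centring gave 1 (Ndufa6; 13.7% of all genes) and the smaller SE gave 5 (29.9% of all genes), against 0. Subsets hold fewer members, so shares are given. Against crypt the shares called were 32.5% (subunits alone), 34.3% (no overlapping gene) and 42.6% (mean signal of at least 100), beside 33.3% of all members. In the last, 35.2% were called lower and 7.41% higher, beside 28.4% and 4.94%. Against labelled-DKO villus the shares were 29.9%, 28.4% and 37.0%, beside 29.6%. All genes were not cut in the same way, by signal or by overlap. The higher shares at a mean signal of at least 100 therefore have no background and cannot be read as a trait of the members. Labelled-DKO villus against crypt kept 0 calls in each subset. The medians of each complex moved by less than 1 SD over its members under all settings. The stricter threshold, the minimum change and the other SE leave fold changes as they were, so no median could move under them. Centring shifted every gene by the same amount. It turned the median of complex III against crypt from -0.040 to 0.0023 and of complex IV from -0.0024 to 0.039. Against labelled-DKO villus it turned them from -0.028 to 0.053 and from -0.033 to 0.048. Complex III also turned with a mean signal of at least 100 (0.021 against crypt, 0.069 against labelled-DKO villus) and, against labelled-DKO villus, without overlapping genes (0.020). Each named gene was set against the threshold again under each setting. Of these values 268 stayed on 1 side of the threshold, 53 lost the call and 3 gained it. The subsets of members leave a gene's own values as they were, so their part of the 268 could not change. Only centring alters a fold change, by the same amount for every gene, and under it no called value changed direction. The losses came from the stricter threshold, centring and the minimum change. No paired analysis was possible because comparisons alone, without library values, were used. Leaving out each replicate, a replicate block and edgeR need library values too and were not run. Depth per library is unknown here, and SEs of members ran from 0.08 to 0.32 against crypt, which limits what change can be seen.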

Other observations

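The deposited gene body windows differ by strand. Among genes with a single transcript in RefSeq, 88.3% of plus-strand windows were 850 bp shorter than the gene and 90.9% of minus-strand windows were 850 bp longer, and all 21190 minus-strand windows held their own promoter window, while 0 of 19858 on the plus strand did. Of the members 57 lie on the minus strand and 23 on the plus strand. By the authors' deposited values for villus and crypt, 19 of the 57 were called lower and 3 higher, with a median of -0.12, and of the 23 plus-strand members 4 were called lower and 1 higher, with a median of 0.01. These are 33.3% lower and 5.26% higher on the minus strand, against 20.6% and 18.7% of all genes there, and 17.4% lower and 4.35% higher on the plus strand, against 16.8% and 18.3%. For all genes the medians were -0.05 and -0.04. Whether the deposited comparisons used these windows is not stated, and the part of window shape in the members' values was not tested.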
